A study of Mus musculus with 6 samples.

Results

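In B16 cells, a mouse melanoma line, 6552 H3K4me3 peaks lay inside protein-coding genes, away from every annotated gene end and without p300. They made up 24.2% of the 27019 H3K4me3 peaks on chromosomes 1 to 19, X and Y. A peak was a member when it overlapped the span of a protein-coding gene, came no nearer than 1 kb to either end of any annotated gene of any kind, and shared no base with a p300 peak. The members were thus chosen by measured peak calls: the lack of p300 and the distance to gene ends are what defined them and are no finding. Of 8226 H3K4me3 peaks inside genes by the same position rule, 79.6% were members and 1674 carried p300. For comparison there were 10606 peaks without p300 at gene ends and 4146 intergenic peaks without p300.

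Both peak lists came from wild-type (WT) B16 cells by CUT&Tag, in which an antibody directs a transposase to tag the DNA around its target. The series is built around the thymine DNA glycosylase gene Tdg and the p53 gene Trp53. Each list stood for 1 library, for H3K4me3 or for p300, with no replicates, so no test was possible and every comparison is a description of these libraries. Whether a result would recur in another culture was not measured. B16 is 1 established line grown in culture. As a check of its labelled cell type, melanoma, 9 of 10 melanocyte marker genes had H3K4me3 at an end and 10 of 10 had it at an end or inside. Of 28 marker genes of epithelial, immune, fibroblast, endothelial and neuronal cells, 6 had it at an end and 10 at an end or inside. Over all protein-coding genes, 50.5% had it at an end. Read totals are unknown. The summits of the members held a median of 53 reads (quartiles 33 and 84), and the lowest held 16. What depth a weaker internal mark would have needed to be called is unknown.

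H3K4me3 is the trimethylated form of lysine 4 on histone H3. It is laid down by SET1 and MLL complexes and is concentrated around active transcription start sites, above all those in CpG-rich DNA, where CFP1 and other CXXC proteins bind unmethylated CpG. Many mammalian genes have further promoters inside the gene body, which give shorter or tissue-specific transcripts. Mitf, the master regulator of melanocytes, is a known case: its melanocyte promoter lies far downstream of its ubiquitously used ones. The product of Ep300, p300, acetylates histones and works as a coactivator at many enhancers and promoters. H3K4me3 at lower levels is also known at active enhancers.

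A first set of sequences shows the DNA at annotated internal starts that members covered, chosen from the strongest of them. Each line gives the 150 bases before a start in RefSeq on GRCm38.p6, 5′ to 3′ along the gene, with every CpG in capitals. For Ccdc174 this is chr6:91877903-91878052 on the plus strand, for Rpp40 chr13:35906348-35906497 on the minus strand, and for Pde4dip chr3:97768015-97768164 on the minus strand. For Tmem14a it is chr1:21218425-21218574 on the plus strand, for Hint3 chr10:30618367-30618516 on the minus strand, and for Fbxw7 chr3:84952061-84952210 on the plus strand.
Ccdc174: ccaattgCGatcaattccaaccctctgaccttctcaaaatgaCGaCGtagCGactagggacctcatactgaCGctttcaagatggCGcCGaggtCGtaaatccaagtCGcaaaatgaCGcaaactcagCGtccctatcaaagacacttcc
Rpp40: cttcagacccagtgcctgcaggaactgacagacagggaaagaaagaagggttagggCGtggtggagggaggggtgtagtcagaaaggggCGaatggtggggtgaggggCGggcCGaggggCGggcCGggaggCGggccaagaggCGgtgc
Pde4dip: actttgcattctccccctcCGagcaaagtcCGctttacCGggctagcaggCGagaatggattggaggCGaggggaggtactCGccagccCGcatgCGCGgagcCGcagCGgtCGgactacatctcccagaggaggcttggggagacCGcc
Tmem14a: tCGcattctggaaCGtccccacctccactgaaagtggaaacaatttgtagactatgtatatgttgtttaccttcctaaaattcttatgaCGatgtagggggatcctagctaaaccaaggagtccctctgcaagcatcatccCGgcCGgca
Hint3: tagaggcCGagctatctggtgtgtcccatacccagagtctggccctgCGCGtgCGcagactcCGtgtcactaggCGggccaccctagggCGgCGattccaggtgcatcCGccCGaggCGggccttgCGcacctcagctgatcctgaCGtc
Fbxw7: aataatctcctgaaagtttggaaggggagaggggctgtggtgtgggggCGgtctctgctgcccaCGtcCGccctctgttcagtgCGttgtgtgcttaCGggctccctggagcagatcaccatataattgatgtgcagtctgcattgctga
The 6 stretches differ widely in CpG. Hint3 and Pde4dip each hold 13 CpG and Ccdc174 holds 11, whereas Tmem14a and Fbxw7 hold 5 each. Rpp40 holds 8 CpG, is 66.7% G or C, and carries the GC box GGGCGG, the site of SP-family factors, as do Hint3 and Fbxw7. Ccdc174 and Pde4dip carry the letters CCAAT on 1 strand.

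A second pair shows annotated internal starts that no H3K4me3 peak covered, in genes that held members elsewhere. The Mitf stretch is chr6:97991633-97991782 and the Dnmt3a stretch chr12:3806830-3806979, both on the plus strand.
Mitf: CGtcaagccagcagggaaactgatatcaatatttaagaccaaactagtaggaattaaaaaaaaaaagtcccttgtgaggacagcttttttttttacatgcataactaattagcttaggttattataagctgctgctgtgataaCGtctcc
Dnmt3a: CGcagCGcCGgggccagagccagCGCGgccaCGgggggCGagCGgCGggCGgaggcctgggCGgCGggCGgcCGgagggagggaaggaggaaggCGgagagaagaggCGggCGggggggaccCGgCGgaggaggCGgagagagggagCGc
The Mitf stretch, before the most downstream of its 3 listed starts, holds 2 CpG and is 35.3% G or C. The Dnmt3a stretch, before the most upstream of its 3 listed starts, holds 21 CpG and is 82.0% G or C. Over the 300 bases around each start the ratio of observed to expected CpG, which allows for the G and C content, was 0.67 for this Mitf start and 0.96 for this Dnmt3a start. Both are above the median of 0.64 at internal starts under members, so neither of these uncovered starts was low by that measure. Other uncovered starts of the same genes had ratios of 0.22 in Mitf and of 1.06 and 0.47 in Dnmt3a. The median over all internal starts without H3K4me3 was 0.28, so the pair printed here is not typical of them.

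The members were narrower and weaker than H3K4me3 at gene ends. Their median width was 581 bp (quartiles 399 and 839, range 246 to 3125 bp), against 864 bp for internal peaks with p300, 862 bp for gene-end peaks and 555 bp for intergenic peaks. Their median fold enrichment, the authors' ratio of the summit to a background, was 5.57 (quartiles 4.35 and 7.11, range 1.81 to 25.9). It was 6.06 with p300, 6.51 at gene ends and 6.24 between genes. The authors' −log10 q, which rises with both fold and read number, had a median of 19.7 (quartiles 12.7 and 33.5), against 32.2, 42.9 and 19 in those sets. In width and −log10 q the members thus resembled intergenic peaks more than gene-end peaks, while their fold was the lowest of the 4 medians. Fold, −log10 q and width of single peaks below are the authors', whereas reads at a summit and its background were solved from the authors' fold and p-value. By these solved values, members had a median summit of 53 reads and a median background of 8.23. Intergenic peaks had 43 and 5.67, internal peaks with p300 79 and 12.2, and gene-end peaks 100 and 14.6. Wide or strong peaks have more chance to touch p300 or a gene end, so the rule itself bears on these differences.

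**Figure D1:**
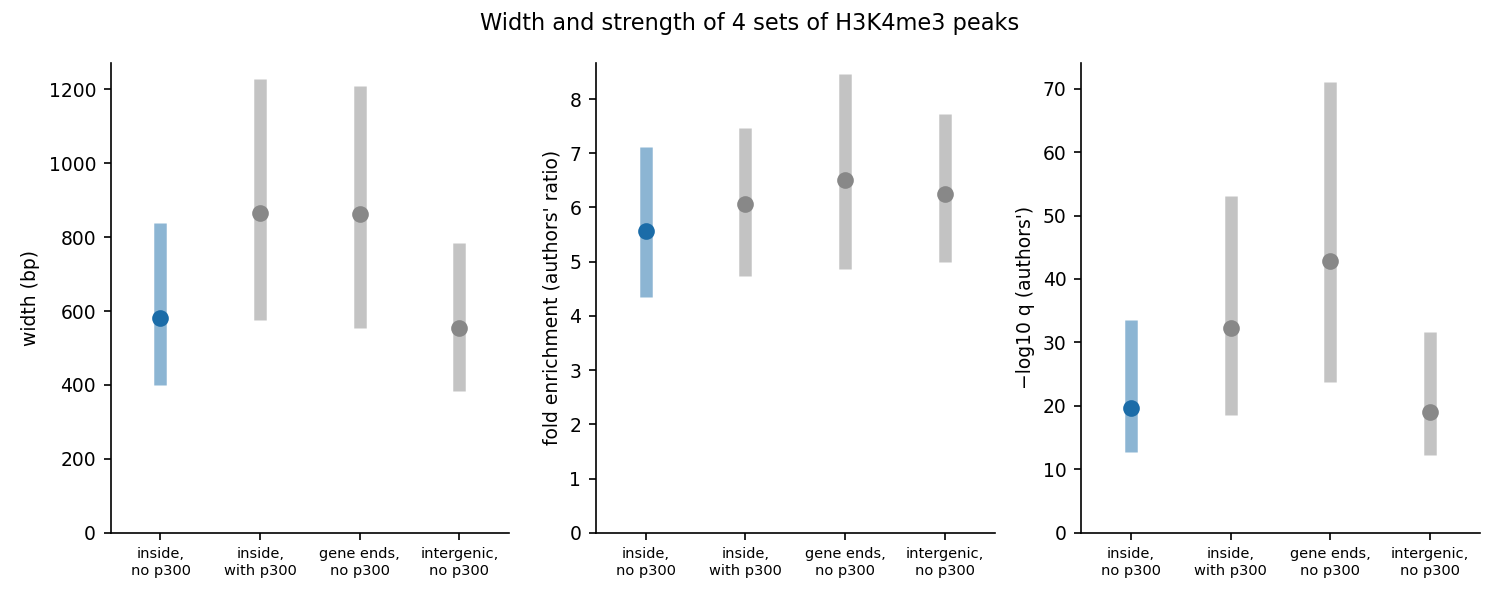
Width in bp, fold enrichment and −log10 q (vertical axes) of H3K4me3 peaks in 4 sets (horizontal axis), with dots for medians and bars from the lower to the upper quartile. The members, in blue, have a median width of 581 bp and a median −log10 q of 19.7, near the intergenic peaks and below the gene-end peaks.

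The rule sets the least distance to gene ends and p300 but not how far beyond it the members lay. Their median distance to the nearest gene end was 9902 bp (quartiles 3345 and 24786), and 948 (14.5%) were within 2 kb of it. The nearest p300 peak was a median of 58834 bp away. It was within 1 kb for 212 members (3.24%), within 10 kb for 1058 (16.1%, exact 95% binomial interval 15.3 to 17.1%) and over 100 kb away for 2314 (35.3%). Within 10 kb the share was 13.7% (13.0 to 14.4%) for gene-end peaks without p300 and 12.7% (11.7 to 13.7%) for intergenic ones, and 32.4% for all H3K4me3 peaks, those that overlap p300 among them. All intervals on shares are exact binomial ones and cover counting error only. Another H3K4me3 peak stood within 5 kb of 36.8% of the members (35.7 to 38.0%), close to the 37.4% of all H3K4me3 peaks. Members took from 18.2% of the H3K4me3 peaks of chromosome X to 27.1% of those of chromosome 2, and none of the 8 on chromosome Y.

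The limits of the rule cut through a continuous range. Just inside the 1 kb limit were members in Tulp4 at 1001 bp and in Arhgap5 at 1003 bp from a gene end, with fold 4.70 and 5.06. Just outside it were peaks in Ptprn and Unc119b, both at 1000 bp, with fold 4.70 and 3.76. The members nearest to a p300 peak were in Tdp1, 10 bp away, and in B4galt1, 15 bp away. The smallest overlaps that kept an internal peak out were 3 bp in Scfd2 and 9 bp in Nck2.

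Some members sat on an annotated internal promoter, and these were stronger than the rest. The RefSeq promoter table lists 21263 starts of 17492 protein-coding genes and none on chromosome 18, and 40.2% of the listed starts lay under an H3K4me3 peak. Of the 6355 members off chromosome 18, 552 covered a listed start (8.69%, 8 to 9.41%), against 26.4% of all H3K4me3 peaks and 10.9% (9.46 to 12.6%) of internal peaks with p300. The rule bars starts near gene ends, so a gap to all peaks is built in. Members at a start had a median width of 944 bp, fold of 7.40 and −log10 q of 49.2, and a median summit of 106 reads. The other 6000 members, those on chromosome 18 among them, had 557 bp, 5.45, 18.4 and 50 reads. When the members were ranked by −log10 q and cut into 5 equal groups, the share at a start was 0.865%, 1.73%, 3.93%, 9.76% and 27.1% from the weakest to the strongest. Ranked by fold, the same shares were 3.38%, 4.96%, 6.14%, 7.95% and 21.0%. Median width rose along both rankings, from 357 to 935 bp by −log10 q and from 458 to 746 bp by fold. A wider peak has more room to cover a start, and the part of width in these shares was not tested. The table is not complete, so a member off every listed start may still cover a promoter.

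**Figure D2:**
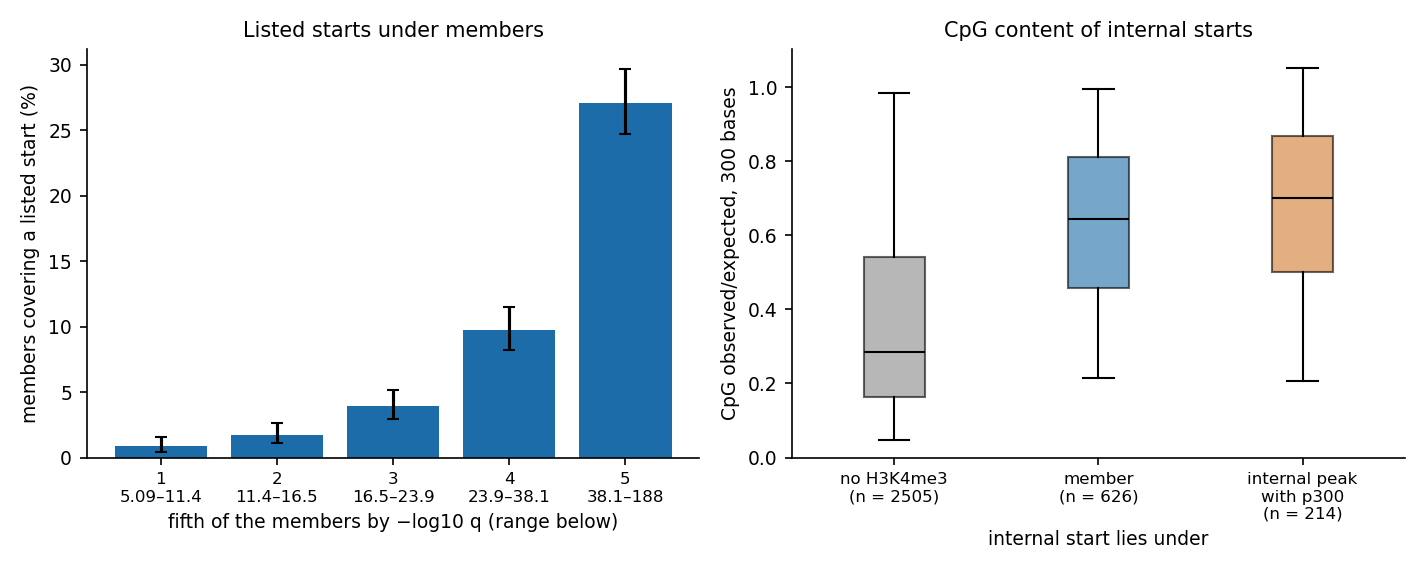
Left, the percentage of members that cover a listed start (vertical axis, bars with exact 95% binomial intervals) in 5 equal groups by −log10 q, rising from 0.865% to 27.1%. Right, the ratio of observed to expected CpG in 300 bases at internal starts under no H3K4me3 peak, under a member and under an internal peak with p300, with boxes for quartiles, lines for medians of 0.28, 0.64 and 0.70, and whiskers from the lowest 5% to the highest 5%.

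In members that covered a start, the summit lay on either side of it. Only starts under a member were taken, so the distance to its summit cannot exceed its width (median 944 bp). At the 626 listed starts under members, the summit lay a median of 24 bp downstream along the gene (quartiles −98.8 and 183 bp), and downstream of the start for 345 of them (55.1%, 51.1 to 59.1%). The 626 starts lay in 532 genes, and 61 members covered several starts, so 1 summit can be counted more than once. Starts are thus not independent, and this interval and those on shares of starts below are too narrow. Of the 552 members, 283 covered the most upstream listed start of a gene and 269 covered only later ones. For 225 of the 626 starts the gene had no other listed start. Gene spans in the RefSeq gene table reach over 1 kb beyond the most upstream listed start in 1740 genes, so a member of this kind can mark what the promoter table gives as a gene's first or only promoter.

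Internal starts under members were richer in CpG than unmarked ones, with overlapping ranges. Of 3549 listed starts more than 1 kb from any gene end, 626 (17.6%) lay under a member, 214 under an internal peak with p300, 204 under a peak that reached a gene end, and 2505 (70.6%) under none. In the 300 bases from 250 before to 50 after the start, the median ratio of observed to expected CpG was 0.64 under members (quartiles 0.46 and 0.81), 0.70 with p300 and 0.28 without H3K4me3. The median G and C content was 58.3%, 60.3% and 51.7%. Starts with a ratio of at least 0.6 and at least 50% G and C, as the Hint3 and Ccdc174 starts printed above have, made up 54.0% (50.0 to 58.0%) of those under members. They made up 62.1% (55.3 to 68.7%) with p300, 20.3% (18.7 to 21.9%) without H3K4me3 and 45.1% of all listed starts. In 5 equal groups of rising CpG ratio, a member covered 2.68%, 6.89%, 17.5%, 35.1% and 26.1% of internal starts. The share under members was thus lower in the group richest in CpG (22.9 to 29.5%) than in the one before it (31.6 to 38.7%). Between the same groups the share under peaks that reached a gene end also fell, from 11.8% to 10.1%. Under internal peaks with p300 it went from 9.72% (69 of 710 starts) to 12.5% (89 of 710). Whether these gene-end and p300 shares differ between the groups beyond counting error was not tested.

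Some promoter motifs differed in the same way. Each was searched as exact letters on both strands of the 300 bases, and a match is a description of the letters only. The GC box GGGCGG occurred at 54.6% (50.6 to 58.6%) of internal starts under members, 28.9% of those without H3K4me3 and 46.2% of all listed starts. The letters TATAAA of the TATA box occurred at 7.03% (5.15 to 9.32%), 13.7% and 12.6%. CACGTG, the E box that MYC and MITF family factors bind, occurred at 9.42% (7.25 to 12.0%), 4.55% and 7.84%. CCAAT (35.3%, 34.7% and 38.2%) and the AP-1 site TGACTCA (4.79%, 5.43% and 4.66%) differed little between the sets. At internal starts under peaks with p300 the shares were 58.4% for GGGCGG, 3.74% for TATAAA, 11.2% for CACGTG and 7.01% for TGACTCA. At internal starts under peaks that reached a gene end GGGCGG was at 56.9% and TATAAA at 4.41%. The sets also differ in CpG and in G and C content, as given above, and the part of that difference in the motif shares was not tested.

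The strongest members by −log10 q were mostly at a listed start in a gene whose ends were unmarked. The 10 highest ranged in −log10 q from 158 to 188 and in fold from 7.36 to 17.67, and 7 of them covered a start. H3K4me3 stood at an end of the host gene for 3 of them, and their summits held 182 to 326 reads. The top member, in Ccdc174, a coiled-coil protein gene, covered 1156 bp at chr6:91877739-91878894 with fold 11.96 and −log10 q 188. Its summit lay 34935 bp inside the gene span and 36 bp past the gene's only listed start. Rpp40, a subunit of RNase P, followed with fold 15.74 and −log10 q 184 at chr13:35905555-35906450, again over its only listed start. Pde4dip, which encodes the centrosome and Golgi protein myomegalin, had fold 12.99 at chr3:97767365-97768596, over the later of 2 listed starts. Tmem14a had 13.15, Hint3 13.44, Snupn (snurportin, an import factor of spliceosomal RNAs) 12.58 and Egf (epidermal growth factor) 17.67, all over a start. Rnf157 (−log10 q 179, fold 9.47), Zfp934 (167, 16.47) and Sfi1 (160, 7.36) did not cover one.

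The members of highest fold were of another shape. The first 6, in Kctd16 (25.87), Gphn (22.54), Camk1d (22.21), Sos2 (21.50), Cdk8 (20.47) and Apool (19.82), were 251 to 423 bp wide, and 5 of them were below the members' lower quartile of 399 bp. None of the 5 off chromosome 18 covered a listed start, and Kctd16 lies on that chromosome. Gphn encodes the inhibitory synapse scaffold gephyrin, and its member at chr12:78350881-78351131 stood 94229 bp from the nearest gene end and 124226 bp from its nearest own start. Sos2 encodes a RAS exchange factor, and Cdk8 the kinase of the Mediator complex. The next 4 were Egf, Fbxw7, Zfp934 and Rpp40, with fold 17.67 to 15.74 and widths of 483 to 896 bp. Fbxw7, which encodes a ubiquitin ligase subunit that targets MYC and cyclin E, had fold 17.10 at chr3:84951851-84952701, with the summit 7 bp from the later start whose upstream bases are printed above.

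The widest members had low fold. The 10 widest ran from 2377 bp in Crmp1 to 3125 bp in Ccnd3, with fold of 3.36 to 5.82, and 5 covered a listed start. Ccnd3, which encodes cyclin D3, had fold 3.52 at chr17:47593426-47596550 and covered a start near the end of its 94639 bp span. Trim11 (2918 bp), Snx33 (2859 bp), Tns2 (2687 bp), Aatk (2548 bp), Zfp462 (2548 bp), Slc1a5 (2513 bp), Septin11 (2497 bp) and Nfix (2482 bp) made up the rest. Solving each peak's fold and p-value for reads gave a median background of 32.9 reads under these 10, against 4.73 under the 10 of highest fold and 8.23 (quartiles 4.60 and 15.6) under all members. Summits were similar, with medians of 138 and 122 reads. The background is computed from the fold and the summit, so at like summits a lower fold gives a higher background by arithmetic.

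Members gathered in the 5′ part of their genes. For the 5221 members in exactly 1 gene of listed strand, the summit lay a median of 27186 bp from the 5′ end of the span, at a relative position of 0.39. In all, 60.5% (59.2 to 61.8%) lay 5′ of the midpoint, against 57.5% (54.8 to 60.2%) of 1346 internal peaks with p300. With each gene cut into 10 equal parts, the share of members fell from 15.8% in the part at the 5′ end to 5.77% in the part at the 3′ end. Peaks with p300 ran from 10.3% and 12.8% in the first 2 parts to 6.24% in the last. Between 1 and 2 kb from the 5′ end lay 7.72% of the members and from the 3′ end 1.38%, against 2.60% and 0.892% of the peaks with p300. Leaving out the members at a listed start gave 14.7% in the part at the 5′ end, 6.24% in the part at the 3′ end and 58.4% (57.0 to 59.8%) 5′ of the midpoint.

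**Figure D3:**
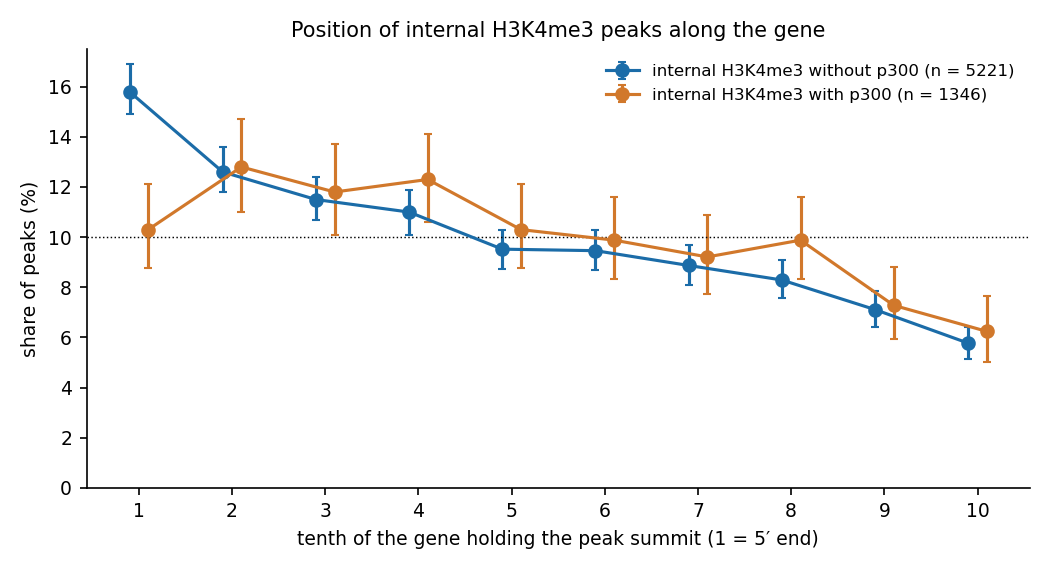
Share of internal H3K4me3 peaks in % (vertical axis) by the part of the gene that holds the summit (horizontal axis, 10 equal parts from the 5′ end), for members in blue and internal peaks with p300 in orange, with exact 95% binomial intervals and a dotted line at an even 10%. Members fall from 15.8% in the part at the 5′ end to 5.77% in the part at the 3′ end, and peaks with p300 start at 10.3%.

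Around the host gene's own listed starts the members stood mostly downstream. Of the 5221, 542 (10.4%) covered such a start, 1013 (19.4%) lay within 5 kb downstream of the nearest one and 188 (3.60%) within 5 kb upstream. Within 1 kb the counts were 357 downstream and 116 upstream. Upstream of a start that lies near the 5′ end there is little gene body, so fewer members could be counted there.

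Long genes held most of the members. The 6552 peaks fell in 3796 of 21887 protein-coding genes, which is 17.3% of them, and the median host was 60756 bp long against 17169 bp for all genes. Among the longest 10% of genes 51.9% (49.8 to 54.1%) held a member, and among the shortest 10% none of 2190 did, where the 1 kb limit leaves no room. A single member was found in 2367 hosts (62.4%), 2 in 797, 3 in 286 and 4 or more in 346. Genes with several held 4232 of the members (64.6%, 63.4 to 65.7%). There were 54 members that lay in more than 1 gene, and each such gene was counted as a host. An internal p300-bearing H3K4me3 peak was also present in 754 of the 3796 hosts and absent from 3042 (80.1%). Over all 21887 protein-coding genes, 1267 held such a peak, so it was more frequent among hosts. The part of gene length in this was not tested.

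The 10 genes with most members were Gse1 with 19, Frmd4a with 17, Akap6 with 14, Msi2, Nfia and Ptprj with 12 each, Dab2ip with 11, and Arhgap26, Septin9 and Tns1 with 10 each. Gse1 encodes a partner of the LSD1-CoREST complex, and its 19 members had fold of 2.31 to 7.58 over 352883 bp (5.38 per 100 kb). Per length Ptprj, a receptor tyrosine phosphatase, was densest with 7.95 per 100 kb, and Arhgap26, a GTPase-activating protein, sparsest with 1.29. Nfia, a nuclear factor I transcription factor, had the highest median fold of the 10, 6.98, and Septin9, a cytoskeletal GTPase, the lowest, 3.93. Msi2 encodes an RNA-binding protein and Akap6 an anchor of protein kinase A. Few of these members stood at a listed start: Frmd4a had 3, Dab2ip, a RAS GTPase activator, had 1, and the other 8 had none. Of these, Arhgap26 lies on chromosome 18, where no starts are listed, so its 10 members could not cover one. Internal peaks with p300 numbered from none in Tns1 to 5 in Septin9. Ends were marked in 4 of them, Msi2, Ptprj, Arhgap26 and Tns1.

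Host genes more often had H3K4me3 at an end than other genes did, but not when only stronger peaks were counted. Of the 3796 hosts 61.3% (59.8 to 62.9%) had a peak within 1 kb of an end, against 48.2% (47.5 to 48.9%) of genes without a member, 65.7% (63.0 to 68.3%) of genes with an internal p300-bearing peak and 50.5% of all protein-coding genes. Among the longest 10% of genes the shares were 59.1% (56.2 to 62.0%) for hosts and 40.6% (37.6 to 43.6%) for the rest. With only peaks at or above the median −log10 q of the list, 40.4% of hosts and 42.3% of all genes had an end peak, and with only those at or above the median fold, 33.9% and 34.4%. Of the 1468 hosts without an end peak, 323 (22.0%) held a member at a listed start, against 218 of 2328 (9.36%) hosts with one.

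Among the genes the series is built around, Tdg, Trp53 and Ep300 held no member, and neither did Dnmt1, Cdkn1a or Mdm2. Most genes held none: 17.3% of all protein-coding genes were hosts, and from 8.31% to 38.4% in the length groups of these genes. Their H3K4me3 was at a gene end or, in Dnmt1 and Cdkn1a, in 1 internal peak each with p300. Dnmt3a, which encodes a de novo DNA methyltransferase, had 3 members and no other H3K4me3 peak. The members were 987 bp wide with fold 4.69, 959 bp with fold 9.66 and 759 bp with fold 6.44, in order from the 5′ end. None covered any of its 3 listed starts. The first began 837 bp downstream of the nearest start, and the other two stood 35032 and 3541 bp from one.

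Mitf held 5 members and 5 internal peaks with p300, besides a peak of fold 8.16 at its 5′ end. The 5 with p300 had fold of 4.98, 6.18, 6.33, 6.90 and 7.64. The members had fold of 2.69, 3.23, 3.69, 4.11 and 5.78. Of the members 4 were thus below every peak with p300, and the fifth was above the lowest of those. The widest of them, 1342 bp with fold 3.23 at chr6:97993127-97994468, began 1344 bp past the most downstream listed start, whose upstream bases are printed above and which no peak covered.

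**Figure D4:**
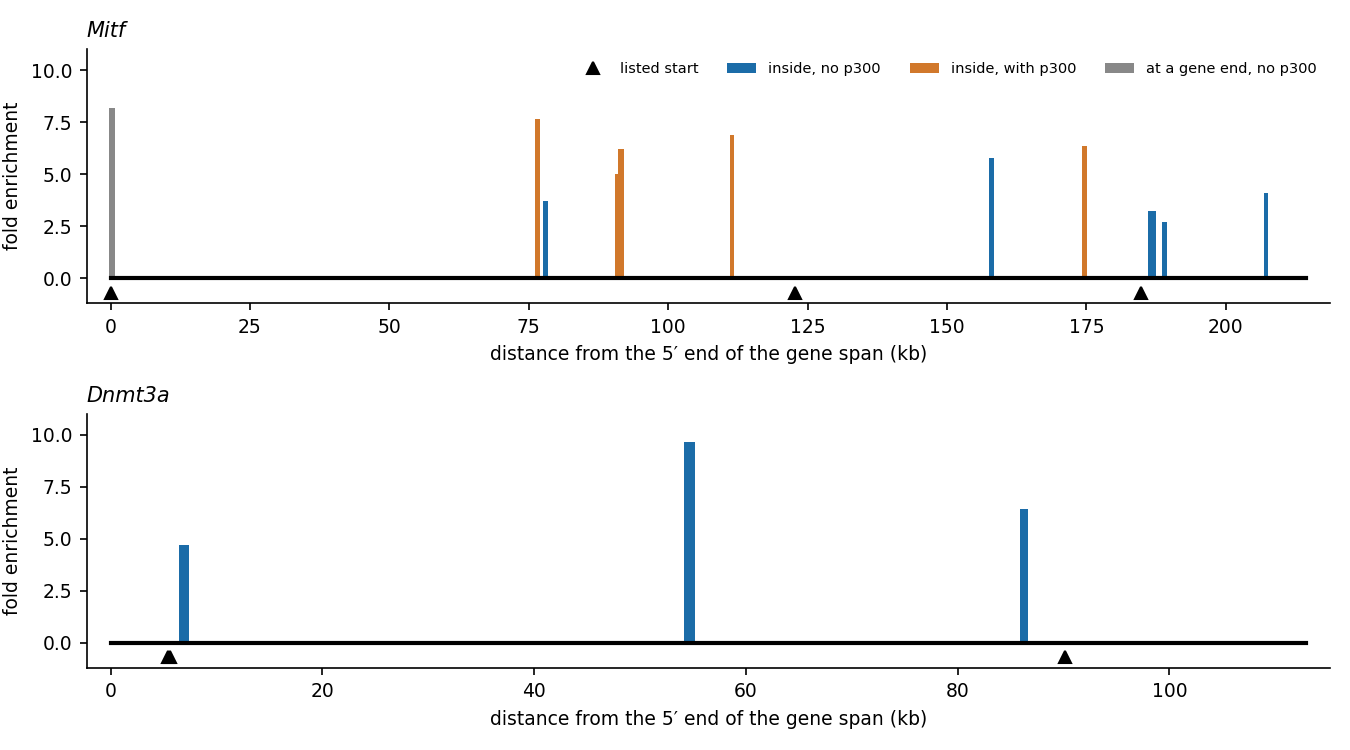
H3K4me3 peaks in Mitf and Dnmt3a by fold enrichment (vertical axis) and distance from the 5′ end of the gene span in kb (horizontal axis), as bars for members (blue), internal peaks with p300 (orange) and a gene-end peak (grey), with narrow peaks drawn at a least width so that they show. Triangles mark the listed starts, and only the Mitf start at the 5′ end lies under a peak.

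In the 11 gene lists the share of hosts ran from 76.0% to 10.7%, beside 17.3% of all genes. Since long genes hold more members, each list is given beside the share that all genes reach when weighted to its lengths in 10 equal length groups. The lists overlap (Mitf, Dnmt3a and Pdgfra are in more than 1), and members of 1 gene share that gene. Genes of the cytoskeleton and its regulators were highest, with 38 of 50 holding a member (76.0%, 61.8 to 86.9%) against 44.7% at those lengths. Their strongest were Tns3 (tensin 3, −log10 q 102), Dst (dystonin, 64.7, at 228 bp from a listed start), Fmnl3 (a formin, 57.6) and Plec (plectin, 57.6 with fold 3.47). Genes known for internal promoters followed with 26 of 40 (65.0%, 48.3 to 79.4%) against 44.6%, and in 3 of the 40 a member covered a listed start. Over all hosts this was so in 22.0% of those without an end peak and 9.36% of those with one. The list's strongest beside Dnmt3a were Tcf7l2, the WNT effector, with fold 9.42, Foxp1, a forkhead factor, with 6.97 at 134 bp from a start, and Ank1, the membrane skeleton gene ankyrin 1, with 10.83.

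**Figure D5:**
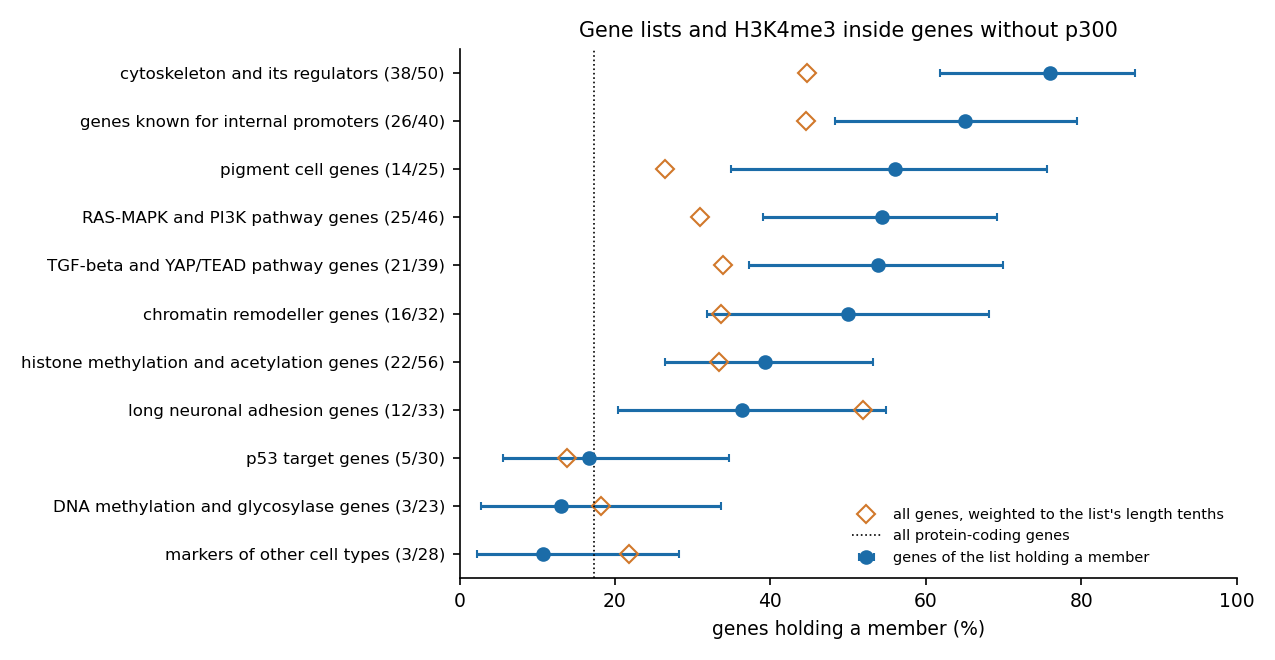
Percentage of the genes of each of 11 lists that hold a member (horizontal axis; dots with exact 95% binomial intervals; counts beside the names) against the percentage over all genes weighted to the list's lengths (diamonds). The dotted line is the 17.3% of all protein-coding genes, and the cytoskeleton list stands highest at 76.0%.

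Pigment cell genes held members of lower median fold than the members at large. A member lay in 14 of 25 (56.0%, 34.9 to 75.6%) against 26.5% at those lengths. An internal peak with p300 lay in 12 of the 25, whether or not they held a member. Over all 21887 protein-coding genes, 1267 had such a peak. The 4 of highest −log10 q were in Bcl2, the survival factor (68.3), Mitf (31.9), Sox10 (28.8) and Tfap2a (28.4). Sox10 and Tfap2a encode transcription factors of the neural crest, and their members had fold of 2.34 and 3.32. Over the 26 members of the list the median fold was 3.28, against 5.57 for all members, while the median summit was 73.5 reads against 53. The background solved from fold and p-value had a median of 25.5 reads, against 8.23 for all members, as the fold and summit imply. The list was not uniform. Examples chosen after their values were seen are Dct and Tyrp1, melanin enzymes, with fold 2.18 and 89 reads at the summit and fold 2.26 and 75 reads. Other members had a higher fold and fewer reads than the medians of the list. The one of highest −log10 q in Trpm1, a cation channel, had fold 5.40 with 45 reads. That in Oca2, a melanosome transporter, had 4.77 with 56, and that in Rab38, a melanosome GTPase, 4.97 with 18. Their fold was still below the median of 5.57 for all members. The list's count fell to 9 when members had to be over 2 kb from a gene end. It fell to 1 of 25 among peaks at or above the median −log10 q, where 6.70% of all genes were hosts, and to 0 among those at or above the median fold, where 8.87% were.

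RAS-MAPK and PI3K pathway genes had members in 25 of 46 (54.3%, 39.0 to 69.1%) against 31.0%. After Sos2 the strongest were Pdgfra, a receptor kinase (fold 7.11), Spry2, a feedback inhibitor (5.61), and Grb2, an adaptor (8.74, over a listed start). TGF-beta and YAP/TEAD pathway genes had 21 of 39 (53.8%, 37.2 to 69.9%) against 33.9%, led by the transcription factors Tead1 (fold 9.70, 9 members) and Tead4 (6.21), the TEAD cofactor Vgll4 (3.83, 7 members) and the Hippo kinase Stk4 (7.97). None of that list's 54 members covered a listed start, but the 5 in Smad7 lie on chromosome 18, where no starts are listed. Of all members off chromosome 18, 8.69% covered one.

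Among chromatin genes the share was highest for remodellers, the ATP-driven complexes that move nucleosomes, which had 16 of 32 (50.0%, 31.9 to 68.1%) against 33.7%, with Chd8 (fold 12.28), Ino80 (6.17, 334 bp from p300), Smarcd3 (5.01) and Chd2 (5.98). Genes of histone methylation and acetylation had 22 of 56 (39.3%, 26.5 to 53.2%) against 33.4%. Their strongest were the nuclear receptor coactivators Ncoa2 (10.04) and Ncoa3 (9.74), the acetyltransferase Kat5 (7.45, over a listed start) and the deacetylase Hdac5 (4.67 over 2344 bp). DNA methylation and glycosylase genes had 3 of 23 (13.0%, 2.78 to 33.6%) against 18.2%: Dnmt3a, the 5-methylcytosine oxidase Tet3 with fold 4.43, and the uracil glycosylase Smug1 with 5.36 over a listed start.

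p53 target genes had 5 of 30 (16.7%, 5.64 to 34.7%) against 13.8%. The strongest were Bbc3, which encodes the BH3 protein PUMA (fold 4.38, 3 members), the stress regulator Sesn1 (9.19) and the autophagy gene Dram1 (7.98), both over a listed start, and the polymerase gene Polk (7.06). Long neuronal adhesion genes, with a median length of 1184913 bp, had 12 of 33 (36.4%, 20.4 to 54.9%) against 51.9% at those lengths. An end peak stood in 4 of the 33 (12.1%), beside 50.5% of all protein-coding genes. Among the longest 10% of genes it stood in 59.1% of hosts and 40.6% of the rest. The list's 24 members had a median fold of 7.19 on a median background of 3.27 reads, the lowest of the 11 lists. Values in the list included fold 9.55 in Magi2, 6.62 in Tenm4 and 5.35 in Csmd3. Markers of other cell types had 3 of 28 (10.7%, 2.27 to 28.2%) against 21.8%: Pdgfra, Pecam1 (7.87) and Col3a1 (7.33). With 23 to 56 genes a list, all these intervals are wide.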

How the data were processed

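Of 6 libraries, 2 were used: wild-type H3K4me3 and wild-type p300 CUT&Tag. The 4 H3K9me3 libraries were not analysed here. Titles gave the groups. The submitters' processing notes name mm10 as build, and among their tools are deepTools, Picard 2.22.4, Bowtie2 2.2.5 and Trim Galore. Not given in the sources used are the peak caller, any control library and read totals. The authors deposited 1 list of peaks a library, with start, end and summit of each. Each peak has a deposited fold, taken here as the ratio of its summit to a background, and a deposited −log10 p and −log10 q. The score the authors deposited beside them was not used in any comparison. PCR copies and repeated sequence can raise these values.

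Genes and starts came from RefSeq GRCm38.p6 tables, which give gene spans without exons, so exon or intron was not analysed here, and promoter sequences by strand. Peaks overlapped when they shared at least 1 bp, and 24 H3K4me3 peaks on other sequences were left out. Summit reads were solved from fold = (reads + 1) / (background + 1) and a Poisson −log10 p, to within 0.002, for 99.9% of H3K4me3 peaks and all 6552 members. The background under a summit follows from the same values and is in reads only if the caller works this way. The scripts were tested on simulated data. Shares carry exact Clopper-Pearson 95% intervals. Python 3.11.15, numpy 2.4.6, pandas 2.3.3, scipy 1.17.1 and matplotlib 3.10.9 were used. The 11 gene lists held 402 symbols, of which 402 matched. Genes named are the 10 strongest, widest and highest-fold members, the 10 genes with most members, up to 4 per list by −log10 q, 8 genes of the study's subject, and the peaks nearest each limit, and 5 further pigment genes (Dct, Tyrp1, Trpm1, Oca2 and Rab38) were named after their values were seen. A gene that this rule names is not reported here. The members and lists were chosen with earlier results of these data known. Other gene end and p300 windows, gene kinds, peak strengths and chromosomes were tried as alternatives.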

Additional observations from a re-analysis of the deposited data

How the results depend on the processing

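With 8 alternative settings, 121 of 184 recomputed values stayed within the interval of the reported value, or within 1.5 times for counts, and 63 did not. Keeping autosomes only moved none of the 23 results. Asking for the summit inside the gene could move none, because a member with no gene end within 1 kb lies wholly inside its gene. The unchanged values of that setting are counted among the 121, so they are no sign of stability. No paired analysis was possible because the result comes from no test and there is 1 library per antibody.

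Counting gene ends to 500 bp gave 29.1% of H3K4me3 peaks as members, a median fold of 5.45, a median −log10 q of 20.6, 6764 bp to the nearest gene end, 18716 bp from the 5′ end, 62.3% of members in genes with several, 58.7% of hosts with an end peak and 17.2% of members within 10 kb of p300. Counting them to 2 kb gave 20.7%, fold 5.70, −log10 q 19.3, 13160 bp, 35186 bp, 66.2% of hosts with an end peak and 14.9% near p300, with 7.86% of members at a listed start and 9 pigment hosts. Barring p300 within 1 kb gave 23.5%, fold 5.66 and 13.3% near p300. Counting ends of protein-coding genes only gave 26.1% and 14988 bp to the nearest gene end.

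Peaks at or above the median −log10 q of the list left 1769 members, 13.1% of those peaks, with a median width of 901 bp, fold 7.47 and −log10 q 46.9. They lay 7186 bp from a gene end and 17972 bp from the 5′ end. Of them 23.0% were at a listed start, 31.3% in genes with several and 13.6% within 10 kb of p300. The 1467 hosts had an end peak in 40.4%. Hosts numbered 1 in the pigment, 3 in the p53, 11 in the histone, 8 in the remodeller, 17 in the internal promoter, 16 in the cytoskeleton, 5 in the TGF-beta and YAP/TEAD, 9 in the RAS-MAPK and PI3K and 6 in the neuronal list.

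Peaks at or above the median fold left 2504 members, 18.5% of those peaks, with a width of 704 bp, fold 7.60, −log10 q 31.7, 13152 bp to a gene end and 39702 bp from the 5′ end. Of them 14.8% were at a listed start, 40.1% in genes with several and 6.27% within 10 kb of p300. The 1942 hosts had an end peak in 33.9%. Hosts numbered 0 in the pigment, 3 in the p53, 1 in the DNA methylation, 11 in the histone, 7 in the remodeller, 20 in the cytoskeleton, 5 in the TGF-beta and YAP/TEAD and 14 in the RAS-MAPK and PI3K list. These settings use fewer peaks at gene ends too, and 42.3% and 34.4% of all genes then had an end peak. Causes were not tested. With 1 library each, spread between cultures is unknown.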
